A study of Zea mays with 6 samples.

Results

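Of 39756 listed maize genes, 32571 had a read in at least 1 library of meiotic anthers. Among them, 318 were high in mop1 replicates 1 and 2 and in no other library. In each of these genes both libraries held at least 2 times the normalized count of every wild-type (WT) library and of mop1 replicate 3. The members were chosen from the measured values of all 6 libraries. A gene entered where its mean over the libraries was at least 20 and mop1 replicate 3 lay below 1.5 times the highest and at or above 0.5 times the lowest WT library. Genes with IDs from Zm00001eb078500 to Zm00001eb082500 were left out. Because these values chose the members, their elevation in mop1 replicates 1 and 2 is a description and not a finding, and no test of it is offered.

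Immature maize anthers with meiocytes in meiosis I were sampled from plants homozygous for mop1 and from homozygous wild-type siblings (+/+), both in a Mo17/B73 background. Each genotype had 3 libraries of total RNA, numbered 1 to 3 in the labels. The labels do not name the mop1 allele, the age of the plants or whether a replicate was a separate plant, so the spread between libraries may be technical. Anthers hold wall layers and tapetum beside the meiocytes, and in such bulk tissue more cells of a type and more RNA per cell cannot be told apart.

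MOP1 is an RNA-dependent RNA polymerase that copies transcripts of RNA polymerase IV into double-stranded RNA. Dicer-like enzymes cut this RNA into small interfering RNAs, and Argonaute proteins use them to guide DNA methylation to matching chromatin. In maize this RNA-directed methylation is concentrated at transposons close to genes, among them the short miniature inverted-repeat transposable elements. The study asked which expression changes accompany the altered crossovers of mop1 plants.

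The gene IDs could not be paired with names. None of the 39756 IDs, and 0 of the 318 members, matched an ID, symbol or synonym among the 49888 genes of the reference table used here. The roles of the members, markers of the labelled tissue, the mop1 transcript and any sequence were therefore not analysed here. Only 2 members are given by ID, the one with the largest fold and the one with the highest count, and the others are described by rank. Normalized counts are not divided by gene length, so a higher count in one gene than in another is no higher level.

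The libraries held 22635163 to 26531475 reads assigned to genes. Across the 23150 tested genes, the correlations of mop1 replicate 3 with the other libraries on the log2 scale ran from 0.85 to 0.91, the highest being with WT replicate 3, and those of all other pairs ran from 0.91 to 0.97. The ranges met at 0.91, where mop1 replicate 2 with WT replicate 3 lay slightly under mop1 replicate 3 with WT replicate 3. Genes are not independent replicates, so these correlations describe the libraries. Every member separates mop1 replicate 3 from the other mop1 libraries by construction, so fits are also given without that library.

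The members covered a wide span of counts in the libraries where they were high. The mean normalized count over mop1 replicates 1 and 2 ran from 39.1 to 12559 with a median of 259. By their mean over all 6 libraries, 90 members lay under 50, 196 lay from 50 to under 1000 and 32 lay at 1000 or more. The median member had 231 normalized counts in mop1 replicate 1 and 268 in mop1 replicate 2. It had 32.7 in mop1 replicate 3, against 51.2, 50.6 and 32.3 in WT replicates 1, 2 and 3. The 4 lower libraries thus fell into a higher pair, WT replicates 1 and 2, and a lower pair, the libraries numbered 3. Over all tested genes the library medians ran from 369 to 389, with no such division.

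**Figure D1:**
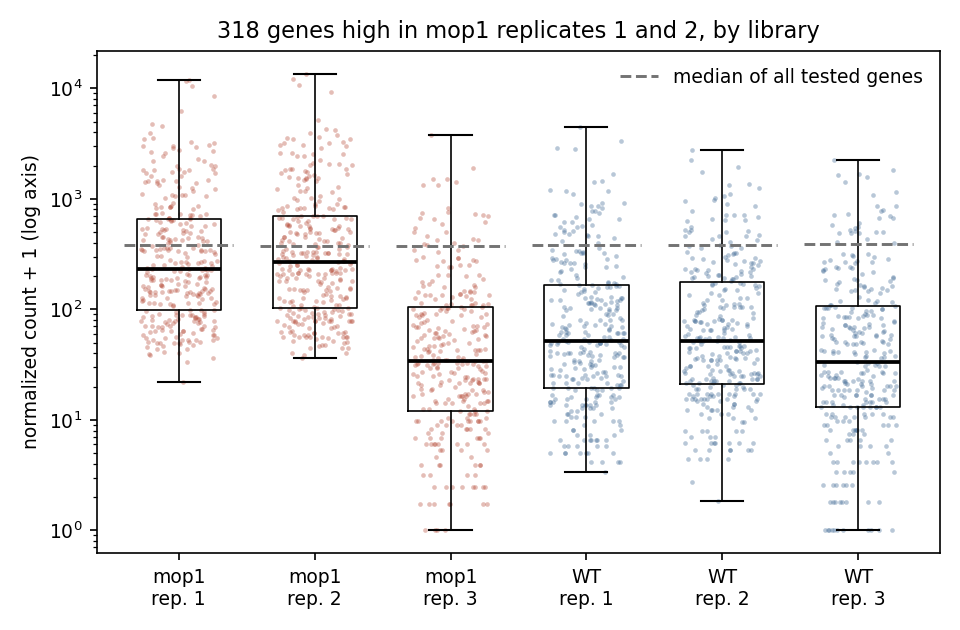
Normalized count plus 1, on a log axis, of the 318 members in each library, with points for genes, boxes from the first to the third quartile, a line at the median and whiskers to the lowest and highest gene. Dashed lines mark the median of all tested genes. The members' medians of 231 and 268 in mop1 replicates 1 and 2 lie above those of 32.3 to 51.2 in the other libraries, as the choice of members requires.

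Taken as a sum, the members made up 1.25% of the normalized total in mop1 replicate 1 and 1.33% in mop1 replicate 2. They made up 0.213% in mop1 replicate 3, and 0.316%, 0.278% and 0.222% in WT replicates 1, 2 and 3. The sum also put mop1 replicate 3 closest to WT replicate 3. No member was without reads in mop1 replicates 1 or 2 or in WT replicates 1 or 2, while 4 had no read in mop1 replicate 3 and 11 had none in WT replicate 3.

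The size of the elevation is given by the ratio of the lower of mop1 replicates 1 and 2 to the highest of the other 4 libraries. Its lowest possible value is 2, its median was 2.85 and its highest value was 20.8. A ratio of 2 to 3 was found for 173 members, 3 to 5 for 92 and 5 or more for 53, of which 5 reached 10. Taken against the mean of the WT libraries, the mean of mop1 replicates 1 and 2 was 4.86 times higher in the median member, with quartiles of 3.70 and 7.49 and a range of 2.32 to 49.2.

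The gene with the largest ratio, Zm00001eb038060, had 589 and 833 normalized counts in mop1 replicates 1 and 2. It had 0.727 in mop1 replicate 3, which is 1 read, and 14.3, 28.3 and 0.797 in WT replicates 1, 2 and 3. The libraries parted into 3 levels, with mop1 replicates 1 and 2 highest, WT replicates 1 and 2 between, and both libraries numbered 3 at a single read each. Counting error, which is all the interval covers, put its ratio of 20.8 between 14.7 and 30.5 at 95%. In WT its mean was 14.5 ± 13.7 (SD, n = 3), so the WT libraries themselves differed by more than 10-fold. limma estimated a log2 fold change between the genotypes of 3.35 (SE 2.47, adjusted p 0.66) over all 6 libraries. Leaving out mop1 replicate 3 raised the estimate by limma to 6.24 (SE 1.12, adjusted p 0.065). The rule had set both mop1 libraries left in that fit above every WT library, so its values restate the choice of the gene.

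The gene with the highest count in mop1 replicates 1 and 2, Zm00001eb338370, had 11541 and 13576 normalized counts there. It had 1891 in mop1 replicate 3 and 2817, 2221 and 1808 in WT replicates 1, 2 and 3. All 4 lower libraries lay close together, with mop1 replicate 3 inside the range of WT. Its WT mean was 2282 ± 507 (SD, n = 3), and counting error put its ratio of 4.10 between 3.95 and 4.25. limma put its log2 fold change over 6 libraries at 1.57 (SE 0.73, adjusted p 0.52). The same model without mop1 replicate 3 gave 2.48 (SE 0.22, adjusted p 0.018 by limma). Here too the rule had set both remaining mop1 libraries above WT, so this p restates the choice and is no support.

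**Figure D2:**
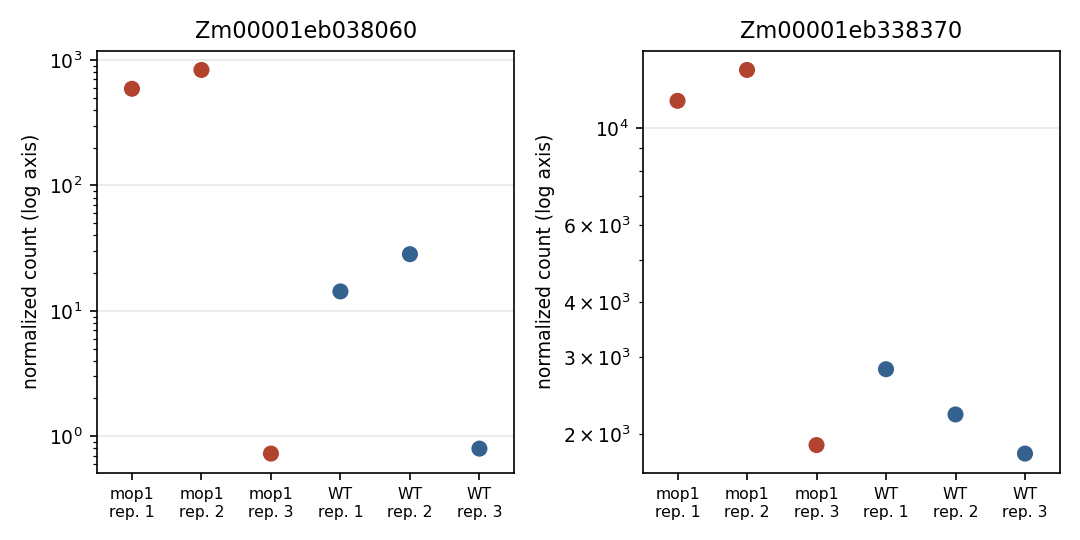
Normalized count, on log axes, of the 2 members given by ID in each library, mop1 in red and WT in blue. In Zm00001eb038060 the libraries numbered 3 lie at 0.727 and 0.797, below WT replicates 1 and 2 at 14.3 and 28.3, whereas in Zm00001eb338370 the 4 lower libraries lie between 1808 and 2817.

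The other members with a ratio of 10 or more were all low in reads, and none passed the filter for tested genes. The second had 57.5 and 61.1 normalized counts in mop1 replicates 1 and 2, 0.727 in mop1 replicate 3, and 4.76, 4.29 and 0 in WT replicates 1 to 3. The third had 78.4 and 91.2 in mop1 replicates 1 and 2, 0.727 in mop1 replicate 3, and 3.97, 6.86 and 0 in WT. In both, the libraries numbered 3 were again the lowest of the 6. The fourth had 63.7 and 87.4 in mop1 replicates 1 and 2, 1.45 in mop1 replicate 3, and 3.17, 6.0 and 0.797 in WT, in the same order. The fifth had 40.4 and 78.1 in mop1 replicates 1 and 2, but WT replicate 2 was its lowest library at 0.857, with 3.97 and 2.39 in WT replicates 1 and 3 and 1.45 in mop1 replicate 3. The counting interval of the second ratio was 5.29 to 34, so the order of these members by ratio is not fixed at this depth.

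A pair of members near the top by ratio combined a large fold with many reads. The eighth had 1759 and 1710 normalized counts in mop1 replicates 1 and 2, against 60.4 in mop1 replicate 3. Its WT libraries held 202, 204 and 55.8, which put its ratio at 8.38 (counting interval 7.33 to 9.62). The tenth had 2994 and 3059 in mop1 replicates 1 and 2, 46.5 in mop1 replicate 3, and 288, 359 and 82.0 in WT, for which the ratio was 8.34 (7.53 to 9.24). Both showed the same 3 levels as Zm00001eb038060.

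Among the members with the highest counts, the second had 11874 and 12013 normalized counts in mop1 replicates 1 and 2, against 1319 in mop1 replicate 3 and 3319, 1732 and 1649 in WT. The third had 10509 and 10684, with 3747 in mop1 replicate 3 and 4424, 2784 and 2244 in WT. mop1 replicate 3 lay below every WT library in the second and inside the WT range in the third, and WT replicate 1 was the highest WT library in both. The libraries of the fifth by count lay farther apart, with 6179 and 3477 in mop1 replicates 1 and 2, 141 in mop1 replicate 3, and 1168, 687 and 236 in WT.

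The counting intervals show how precisely the depth fixed the ratio that chose the members, and they are no test of the elevation. The lower bound of the 95% interval was at least 2 in 205 members. For the other 113 members the interval included values under the threshold that admitted them, so the depth does not settle on which side of it they lie. These intervals compare single libraries and say nothing of the spread between plants.

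At the fold threshold, the last member inside had 321 and 349 normalized counts in mop1 replicates 1 and 2 and 160 in WT replicate 2, its highest other library. The first gene outside had 88.5 and 73.5, with 36.9 in WT replicate 2, a ratio of 1.99. Of 388 genes with the fold and a mean of at least 20, 60 were lost because mop1 replicate 3 lay under 0.5 times the lowest WT library. A further 8 were lost because it lay at or above 1.5 times the highest, and 2 because of their ID. At the lower of these bounds, the nearest member had 25.5 in mop1 replicate 3 against a lowest WT value of 50.8, and the nearest gene outside had 9.45 against 19.1. At the upper bound, the nearest member had 42.2 against a highest WT value of 29.3, and the nearest gene outside had 21.8 against 14.3. At the minimum mean, the nearest member had 20.3 and the nearest gene outside had 19.5.

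The rule did not fix how close mop1 replicates 1 and 2 lay to one another. They were within 1.5-fold in 248 of 318 members (78.0%), the same share as over all tested genes (78.1%). mop1 replicate 2 was the higher in 187 members (58.8%), against 48.1% of all tested genes, and the median ratio of replicate 1 to replicate 2 was 0.934. It was also the higher in 34 of 49 genes (69.4%) high in all 3 mop1 libraries, a list described below. In genes low in mop1 replicates 1 and 2 it was the higher in 26 of 65 (40%). A higher mop1 replicate 2 is thus not shown to be particular to the members. More than 2-fold lay between mop1 replicates 1 and 2 in 13 members, and mop1 replicate 2 was the higher in 11 of these. The most unequal member had 183 normalized counts in mop1 replicate 1 and 842 in mop1 replicate 2, with 72.7 in mop1 replicate 3 and 32.5, 55.7 and 82.8 in WT. In the opposite direction, a member had 144 in mop1 replicate 1 and 37.9 in mop1 replicate 2, with 14.5 in mop1 replicate 3 and 6.34, 12.0 and 4.78 in WT.

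**Figure D3:**
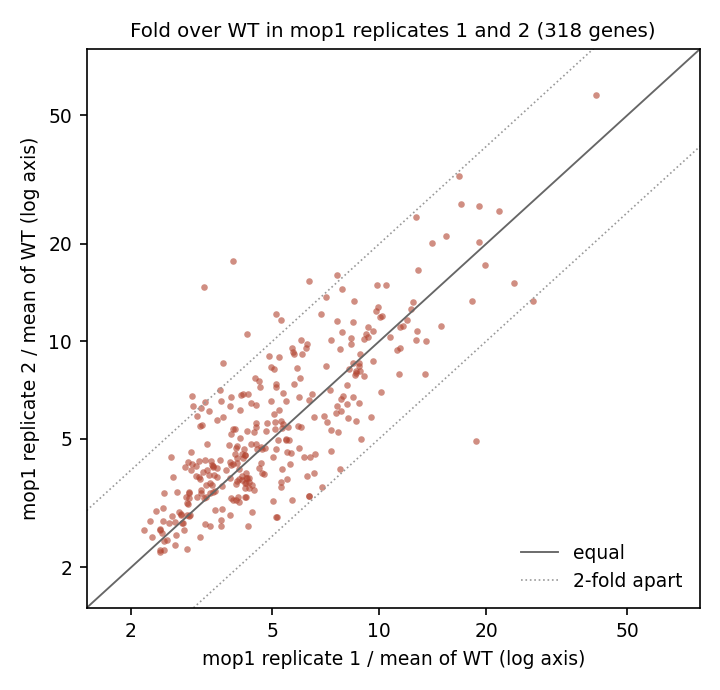
Fold of mop1 replicate 1 (x axis) and mop1 replicate 2 (y axis) over the mean of the WT libraries, on log axes, with 1 point per member, a solid line where both are equal and dotted lines where they are 2-fold apart. Outside the dotted lines lie 13 members, 11 of them on the side of mop1 replicate 2.

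Below the high pair of libraries, the members were not level. WT replicate 3 was below both other WT libraries in 185 of 318 members (58.2%), against 34% of all tested genes. It was above both in 51 members (16%), against 36.6% of all tested genes. The rule set no order among the WT libraries, but it used their highest and lowest values, so these shares are a description and the other tested genes were not chosen in the same way. mop1 replicate 3, which the rule held within bounds set by WT, was below WT replicates 1 and 2 in 200 members (62.9%), against 37.7% of all tested genes. Both libraries numbered 3 lay below WT replicates 1 and 2 in 147 members (46.2%), against 22.2% of all tested genes. Both lay above them in 20 members (6.29%), against 24.9%.

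The median difference from the mean of WT replicates 1 and 2, on the log2 scale, was -0.56 for mop1 replicate 3 and -0.48 for WT replicate 3 in the members. Over all tested genes the same differences were 0.06 and 0.02. For mop1 replicates 1 and 2 the median differences in the members were 2.08 and 2.21. mop1 replicate 3 and WT replicate 3 differed from each other by a median of -0.03. With quantile normalization in place of the deposited scaling, mop1 replicate 3 was at -0.33 and WT replicate 3 at -0.46, and both libraries lay below WT replicates 1 and 2 in 122 members (38.4%), against 20.5% of all tested genes. With TMM scaling the count was 149. Whether a difference shared by the libraries numbered 3 has a part in the choice of the members was not tested.

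**Figure D4:**
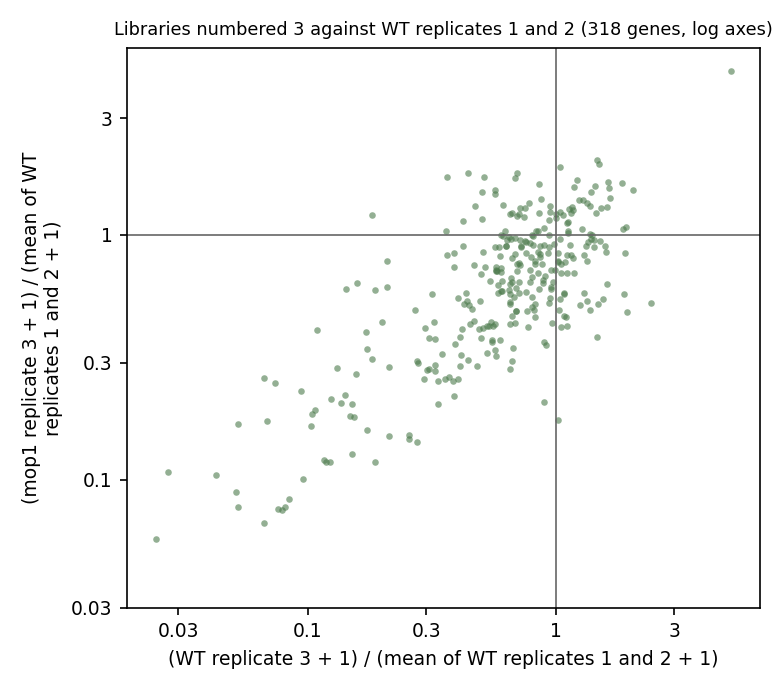
Ratio of WT replicate 3 (x axis) and mop1 replicate 3 (y axis) to the mean of WT replicates 1 and 2, each with 1 added, on log axes, with 1 point per member and lines at equality. Both axes share a denominator. The cloud extends to the lower left, where both libraries numbered 3 are low, down to ratios of 0.0243 and 0.0571.

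The share of members with both libraries numbered 3 below WT replicates 1 and 2 is given by ratio class as a description only, since the highest of the 4 lower libraries is the denominator of the ratio and mop1 replicate 3 was bounded by WT. Both lay below in 63 of 173 members with a ratio of 2 to 3 (36.4%), in 43 of 92 with a ratio of 3 to 5 (46.7%) and in 41 of 53 with a ratio of 5 or more (77.4%). With quantile normalization the last share was 66.0%. WT replicate 3 alone was the lowest WT library in 51.4%, 56.5% and 83.0% of these classes. By mean count the shares ran from 38.9% of the 90 members under 50 to 49.5% of the 196 members from 50 to 1000 and 46.9% of the 32 above.

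**Figure D5:**
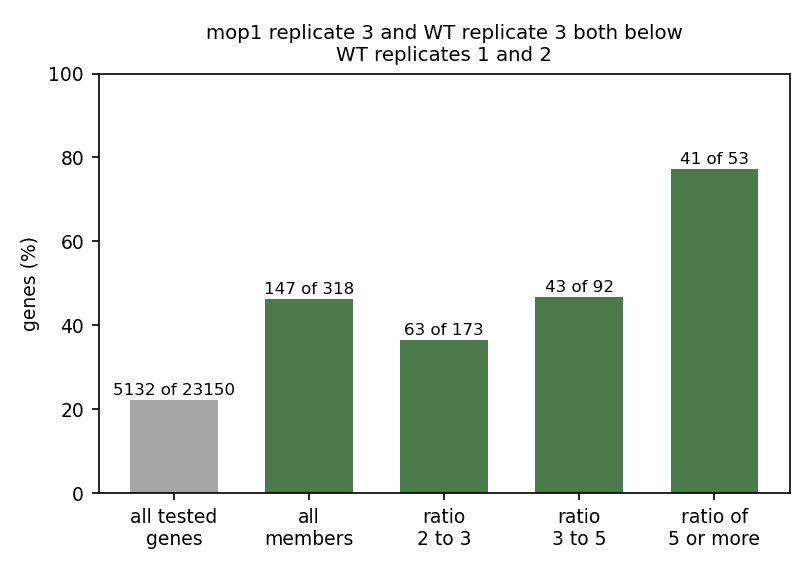
Percentage of genes in which mop1 replicate 3 and WT replicate 3 both lie below WT replicates 1 and 2, for all tested genes (grey), all members and members by ratio class (green), with the counts above the bars. The bars are 22.2% for all tested genes and 36.4%, 46.7% and 77.4% for the classes of rising ratio, which share their lower libraries with the rule.

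In 57 members (17.9%) both libraries numbered 3 held 0.5 times the lower of WT replicates 1 and 2 or less, as did 468 of all tested genes (2.02%). The rule kept mop1 replicate 3 at 0.5 times the lowest WT library or more, so a member with a very low mop1 replicate 3 had to be low in a WT library too, a bound that the other tested genes did not have to meet. In 10 members (3.14%) both held 0.1 times the lower of WT replicates 1 and 2 or less, as did 34 of all tested genes (0.147%). Of the 10, 6 had a mean under 50, where such values are a few reads. One of the 10, with a ratio of 2.54, had 335 and 276 normalized counts in mop1 replicates 1 and 2, 102 and 109 in WT replicates 1 and 2, and 5.09 and 1.59 in mop1 and WT replicates 3. A second, with a ratio of 7.55, had 252 and 394 in mop1 replicates 1 and 2, 10.3 and 33.4 in WT replicates 1 and 2, and 0.727 and 0.797 in the libraries numbered 3. As a ratio, the gap within WT was in both wider than that from mop1 replicates 1 and 2 to the WT libraries next to them. As a difference in normalized counts it was narrower.

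At the other end, 106 members (33.3%) had all 4 lower libraries within 2-fold of each other, with 1 added to each value, against 66.5% of all tested genes. By mean count the share was 23.3% of members under 50, 34.7% from 50 to 1000 and 53.1% at 1000 or more. The members' counts in these libraries were lower than those of all tested genes, and the part of the count in this gap was not tested. The member with rank 108 by ratio had 648 and 490 normalized counts in mop1 replicates 1 and 2, 142 in mop1 replicate 3, and 116, 127 and 121 in WT. The member with rank 294 had 3172 and 2974 in mop1 replicates 1 and 2, 1422 in mop1 replicate 3, and 1189, 1350 and 1410 in WT. In these genes mop1 replicate 3 was the highest of the lower libraries, but only narrowly. Among the 53 members with a ratio of 5 or more, 10 were level in this way.

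The median coefficient of variation over the 3 WT libraries was 40.6% in the members and 16.3% in all tested genes, whose WT counts were higher. It was 31.5% in genes high in all 3 mop1 libraries and 29.8% in genes low in mop1 replicates 1 and 2. These differences, and their relation to the count, were not tested.

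Over the members, counts correlated most strongly within the high pair and within the pair numbered 3. Pearson's r on the log2 scale across the 318 members was 0.97 between mop1 replicates 1 and 2 and 0.94 between mop1 replicate 3 and WT replicate 3. It was 0.81 between mop1 replicate 3 and each of the other mop1 libraries, and 0.79 and 0.80 between WT replicate 3 and mop1 replicates 1 and 2. WT replicates 1 and 2 correlated with mop1 replicates 1 and 2 at 0.90 to 0.93. WT replicate 1 also correlated at 0.90 with both WT replicate 2 and mop1 replicate 3, and at 0.88 with WT replicate 3. The values of WT replicate 2 with mop1 replicate 3 and WT replicate 3 were 0.84 and 0.82. These values run across genes chosen for a pattern in the same libraries and are given as a description.

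The order of the WT libraries was similar in genes high in all 3 mop1 libraries. In 49 genes all 3 mop1 libraries held at least 2 times the highest WT library, with the same minimum mean and the same IDs left out. WT replicate 3 was the lowest WT library in 29 of these (59.2%), close to the 58.2% of the members, so a low WT replicate 3 is not shown to be particular to the members. The mirrored rule, with mop1 replicates 1 and 2 at 0.5 times every other library or less, was met by 65 genes. In those, WT replicate 3 was above both other WT libraries in 50 (76.9%). The median differences of mop1 replicates 1 and 2 from WT replicates 1 and 2 were -1.63 and -1.71 on the log2 scale there. These lists share all 6 libraries, and their differences were not tested.

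The comparison of mop1 with WT was fitted over all genes, and the members were read from it as a description, since the rule used the same contrast. Of the 318 members, 308 passed the filter of at least 10 normalized counts in 3 libraries. The 10 that did not were below 10 in all 4 lower libraries, and all 10 had a ratio of 5 or more. The shares of the 318 members and of that ratio class given above include them, whereas all tested genes passed the filter. A further 26 reached 10 in mop1 replicates 1 and 2 and in only 1 other library. At an adjusted p of 0.05, limma on all 6 libraries called 0 of the 308 members, where 0.00864% of all tested genes were called higher in mop1. The lowest adjusted p among the members was 0.38. At an unadjusted p of 0.05, 71 members were higher in mop1, where the share of all tested genes was 4.14%. edgeR also called 0 members, with the same 0.00864% of all tested genes called higher, and gave 158 at an unadjusted p of 0.05, where the share of all tested genes was 5.38%. DESeq2 called 29, where 0.95% of all tested genes were called higher, and gave 248 at an unadjusted p of 0.05, where the share was 6.78%. With the replicate number as a block, limma called 0 members, where 0.013% of all tested genes were called higher, and gave 144 at an unadjusted p of 0.05, where the share was 5.38%.

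The median log2 fold change of the 308 members over 6 libraries was 1.44, with a range of 0.56 to 3.35 and a median standard error of 0.78. Over all tested genes the median fold change was -0.02 and the median standard error 0.27. The rule itself placed 1 mop1 library with WT in every member, which widens the members' standard error. Without mop1 replicate 3 the median log2 fold change was 2.30 with a median standard error of 0.42, and limma called 99 of 308 members, where 0.717% of all tested genes were called higher. Members thus made up 99 of the 166 genes called higher in that fit. edgeR called 129 members in the same 5 libraries, where 1.04% of all tested genes were called higher, and DESeq2 called 290, where 5.4% were. These counts restate the rule, which asked for such genes, and nothing is read from them. Without both libraries numbered 3, limma called 92 members, where 0.549% of all tested genes were called higher, and the median log2 fold change was 2.17. The rule had set both mop1 libraries of that fit above both of its WT libraries, so its values restate the rule too. The fits by edgeR and DESeq2 without mop1 replicate 3 and the fit without both libraries numbered 3 were added after the data had been seen.

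The members were spread over the whole series of IDs. Each of the 23 full blocks of 1000 tested genes in ID order held 7 to 20 members, with a median of 14. Members made up 1.33% of tested genes. Another member was the next or the previous tested gene for 23 of 308 members (7.47%), forming 12 pairs. The 7.47% counts neighbours on either side and the 1.33% counts single genes, so the shares are not alike. Within 5 tested genes of another member lay 67 members, in 32 groups. No matching share over all tested genes was computed for this count or for the neighbours, so no clustering is read from them. The largest group held 4 members within this spacing. Its members had 59.8, 359, 719 and 349 normalized counts in mop1 replicate 1, and 59.5, 328, 498 and 394 in mop1 replicate 2. They had 13.1, 16, 31.3 and 24.0 in mop1 replicate 3 and 15.9, 12.7, 19.1 and 25.5 in WT replicate 3. WT replicate 1 held 26.2, 121, 184 and 73 and WT replicate 2 held 5.14, 63.4, 204 and 78.0, so in 3 of the 4 the WT libraries numbered 1 and 2 were far above both libraries numbered 3. Neighbouring genes may include near-identical copies between which reads are shared, which was not tested.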

How the data were processed

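Transcripts of immature anthers were sequenced in 6 libraries, 3 mop1 and 3 WT. HISAT2, HTSeq, SAMtools, DESeq2 and Trimmomatic 0.39 appear in the submitters' processing notes. What each did, and the build, gene models and strandedness, is not given in the sources used here. The deposited table holds a signal per gene and library, which the labels call normalized counts. In each column 100% of values were whole multiples of the smallest value, within 0.01 of a read, so dividing by that value returned whole reads. Mo17 and B73 haplotypes may map unequally, and reads of overlapping, antisense or near-identical genes may have been split or dropped.

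The main test was limma 3.58.1 (R 4.3.3) on log2(normalized count + 1), with trended and robust empirical Bayes, two-sided, with Benjamini-Hochberg adjustment over 23150 genes that reached 10 normalized counts in at least 3 libraries. Fold changes on this scale understate those of low genes. edgeR 4.0.16 and DESeq2 1.42.0 on the recovered reads, other scalings, filters and pseudocounts, a replicate block and each library left out were alternatives. Fits were tested on simulated data. Counting intervals are exact binomial (Clopper-Pearson) at 95%.

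Same-numbered libraries deviated together from their group means, with correlations across genes of 0.15, 0.25 and 0.49, so the blocked fit took the numbers as pairs. This pairing comes from these data, since the labels state none, and mop1 replicate 1 correlated more with WT replicate 2 (0.33).

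The members and all lists were chosen with earlier results of these data known. The 2 IDs printed are the members with the largest ratio and with the highest mean of mop1 replicates 1 and 2. The patterns of order among the lower libraries were chosen after their values were seen. No set of named genes or markers could be used, because the IDs were not paired with names.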

Additional observations from a re-analysis of the deposited data

How the results depend on the processing

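The number of members moved from 318 to 621 with a fold minimum of 1.5 and to 145 with a minimum of 3. Leaving out 1 library from the rule gave 274 to 546, with 546 without mop1 replicate 1 and 479 without mop1 replicate 3. The minimum mean was still taken over all 6 libraries, so only the fold and the bounds were without that library. TMM scaling gave 375 (315 shared with the 318) and quantile normalization 313 (283 shared). The count of genes called by limma over all tested genes, 5 with the deposited values, was 8 with pseudocount 5, 10 with no filter and 1 at a mean of at least 50. edgeR called 3 and DESeq2 443. Leaving out 1 library gave 0 to 208 genes and 0 to 99 members. The counts of genes were 50, 1 and 208 when mop1 replicate 1, 2 or 3 was left out, and 0 when any WT library was, where limma gave 744, 538 and 663 genes higher in mop1 at an unadjusted p under 0.05. The 99 members came from the fit without mop1 replicate 3, where 0.717% of all tested genes were called higher in mop1. limma called 0 members in each other fit that left out 1 library. At an unadjusted p under 0.05, limma gave 11 to 38 members in those fits, where 2.32% to 3.54% of all tested genes were higher in mop1. DESeq2 called 29 members, where 0.95% of all tested genes were called higher in mop1. Without mop1 replicate 3, edgeR called 279 genes and 129 members, and DESeq2 called 1988 and 290. The shares of all tested genes called higher in mop1 were 1.04% and 5.4% in these fits. Without both libraries numbered 3, limma called 141 genes and 92 members, where 0.549% of all tested genes were called higher in mop1. These last 3 fits were chosen after seeing the data, and their counts of members restate the rule. The replicate block gave 5 genes and 0 members by limma and changed no call of a member. At an unadjusted p under 0.05 that fit by limma gave 144 members, where 5.38% of all tested genes were higher in mop1. Zm00001eb038060 and Zm00001eb338370 were higher in mop1 under all 18 alternatives, and passed the threshold in 3 and 4 of them, all of which left out mop1 replicate 3. Those fits keep only the mop1 libraries that the rule held high, so these passes restate the choice of the genes. The scalings moved the median fold change of all genes by 0.03 and 0.04 on the log2 scale. Beyond the fewer libraries or genes in some fits, the cause of these differences was not tested. At this depth the counting interval of the ratio reached below 2 in 113 members.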
